A study of Mus musculus with 18 samples.

Results

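Gbp2, Gbp2b (also named Gbp1), Gbp3, Irgm1, Igtp and Irf1 are 6 interferon-inducible genes of the 23421 genes with RNA-seq values in a study of Polycomb and of lysine 36 methylation in mouse embryonic stem (ES) cells. They were taken by symbol, and 8 transcripts in the deposited table carry these symbols. The choice was made with the values of these libraries known, and Gbp2 had already been named among the genes lower in Eed KO ES cells. The set was thus selected on the measured differences, and everything below is a description.

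The values come from 6 RNA-seq libraries, 1 per group. ES Eed KO and ES WT are E36 ES cells, with and without a knockout of Eed, a subunit of the Polycomb enzyme that methylates lysine 27 of histone H3, grown on gelatin with 15% serum and leukemia inhibitory factor. EB Eed KO and EB WT are embryoid bodies (EBs) grown from the same E36 genotypes. That factor was withdrawn and the cells hung in drops for 48 hours, then took all-trans-retinoic acid at 0.5 µM from day 2 to day 5, and the cultures ran to day 9. E14 shSetd2 and E14 shCtrl are wild-type E14 ES cells given a pLKO.1 lentiviral hairpin against Setd2, the enzyme that trimethylates lysine 36 of histone H3, or a scrambled one. They were selected with puromycin and harvested on day 4 after selection. Every line has the 129/Ola background. Whether the knockout line is 1 clone is not given in the labels. With 1 library per group, no difference has a replicate check. Of 18 samples, the 12 for ChIP-seq were left aside.

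Interferon gamma binds a receptor that activates JAK kinases and transcription factors of the STAT family, which bind GAS elements. Their targets include Irf1, itself a transcription factor that binds interferon-stimulated response elements (ISREs) and drives further genes. The guanylate-binding proteins Gbp2, Gbp2b and Gbp3 are large GTPases that assemble on the vacuoles of intracellular pathogens. Irgm1 and Igtp (Irgm3) are immunity-related GTPases of the regulatory class, which sit on host membranes and hold the effector GTPases of that family in check. ES cells are known to respond weakly to interferon.

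All 6 genes lie on chromosome 3 or 11. On mm9, the table places Gbp3 (NM_018734) at 142223016 to 142236176, Gbp2b (NM_010259) at 142257811 to 142282140 and Gbp2 (NM_010260) at 142283627 to 142300972 of chromosome 3. On chromosome 11 it places Irgm1 (NM_008326) at 48678751 to 48684848, Irf1 at 53583516 to 53591876 and Igtp (NM_018738) at 58013058 to 58021094. Irf1 has 3 transcripts, and NM_008390, which carries nearly all of its signal, stands for the gene.

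The promoter letters of the 6 genes are shown because the genes are classical targets of the factors named above. RefSeq (GRCm38.p6) gives 8 windows for them, each from 250 bases before to 50 after a transcript start. The ISRE core was searched on both strands as GAAA, any 2 bases and GAAA again (on the other strand TTTC, any 2 bases, TTTC), and the GAS element as TTCNNNGAA, which is its own reverse complement. The ISRE core stood in 5 of the 8 windows, 1 for each GTPase gene, and GAS in 2, those of Irf1 and Igtp. Of all 32851 windows, 3.44% held the ISRE core and 8.30% held GAS. The stretches below run 5′ to 3′ on the gene's strand, with the matches in capitals.
Gbp2: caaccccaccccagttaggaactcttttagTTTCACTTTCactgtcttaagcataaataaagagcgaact
Gbp2b: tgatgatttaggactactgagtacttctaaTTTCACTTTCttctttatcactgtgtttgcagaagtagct
Gbp3: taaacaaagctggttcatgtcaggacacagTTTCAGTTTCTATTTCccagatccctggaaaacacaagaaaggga
Irgm1: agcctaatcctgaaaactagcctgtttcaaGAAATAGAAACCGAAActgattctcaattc
Igtp: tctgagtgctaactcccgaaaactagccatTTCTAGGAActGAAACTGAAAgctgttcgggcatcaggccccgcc
Irf1: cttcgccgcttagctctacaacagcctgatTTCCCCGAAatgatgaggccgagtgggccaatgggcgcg
These are chr3:142620574-142620643 (+) for Gbp2, chr3:142594680-142594749 (+) for Gbp2b, chr3:142559969-142560043 (+) for Gbp3, chr11:48871421-48871480 (-) for Irgm1, chr11:58199481-58199555 (+) for Igtp and chr11:53769894-53769962 (+) for Irf1. In Gbp3 and in Irgm1 a pair of ISRE matches overlaps by 4 bases. The other windows of Gbp3 and Irf1 held neither motif, which says only that these letters are not in them. Among 12 further guanylate-binding and immunity-related GTPase genes with a window, 8 held the ISRE core and 7 GAS.

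**Figure D1:**
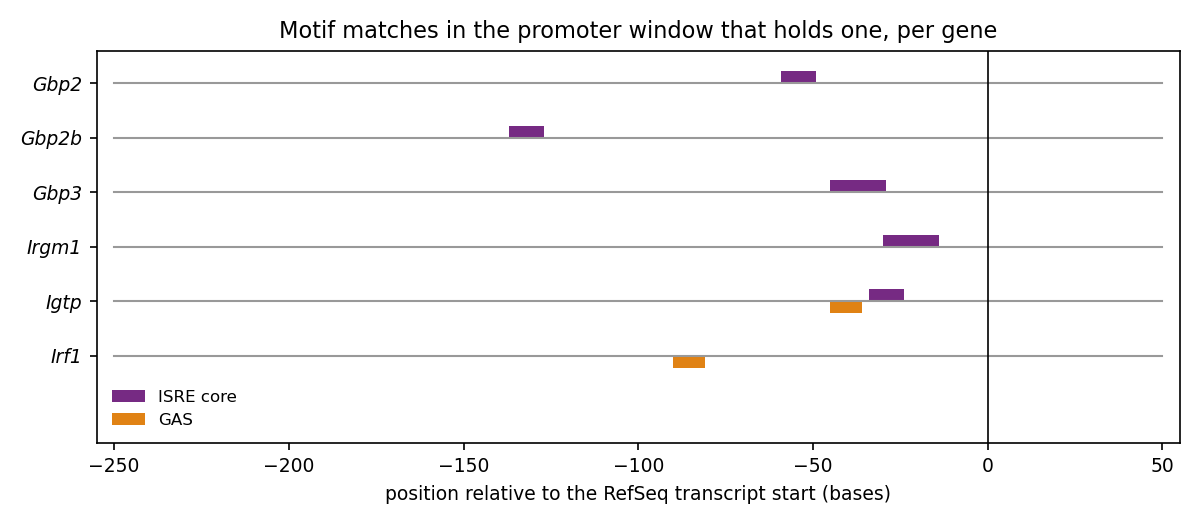
Positions of the ISRE core (purple) and GAS (orange) matches in the promoter window of each gene that holds one, in bases relative to the RefSeq transcript start (0). The matches of Gbp2, Gbp3, Irgm1 and Igtp begin 59, 45, 30 and 45 bases before the start, that of Irf1 90 and that of Gbp2b 137.

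Several facts of the libraries bear on what follows. Eed mRNA was 77.8 FPKM (fragments scaled to transcript length and library size) in ES Eed KO and 72.3 in ES WT, and 21.8 in EB Eed KO and 25.04 in EB WT, so the Eed labels rest on the labels alone. Setd2 had 2.59 FPKM in E14 shSetd2 and 16.8 in E14 shCtrl. Hprt, a purine salvage enzyme, was 0.770 and 0.567 FPKM in the E14 libraries and 19.2 to 114 in the E36 libraries. The summed level of 7 pluripotency markers was 1679 to 2234 FPKM in the 4 ES libraries, 22.2 in EB Eed KO and 119.9 in EB WT. Relative depth, read from the steps of low values, was 0.790 to 1.22 with ES WT at 1. Levels below are FPKM, which is per length. Differences are of log2(FPKM + 1), tested library minus control, and a gene counts as higher or lower at a difference of at least 1 in size. That scale understates the change of weak genes, so ratios of FPKM are given too. All 6 genes passed the filter of 1 FPKM in the 6 main comparisons.

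Levels of 5 of the 6 genes were highest in ES WT, and levels of 5 were lowest in E14 shCtrl. Gbp2 had 4.40 FPKM in ES Eed KO and 29.4 in ES WT, 2.62 in EB Eed KO and 2.44 in EB WT, and 10.7 in E14 shSetd2 and 0.791 in E14 shCtrl. ES WT and E14 shSetd2 were therefore high, and both EB libraries lay close together. Its order from the top was ES WT, E14 shSetd2, ES Eed KO, EB Eed KO, EB WT and E14 shCtrl. In that order each of the first 2 steps was at least 1 on the log2(FPKM + 1) scale, at 1.37 and 1.12, and the other 3 were smaller.

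Gbp2b, the next gene along the chromosome, had 3.26 FPKM in ES Eed KO and 20.8 in ES WT, 1.99 in EB Eed KO and 1.78 in EB WT, and 6.04 in E14 shSetd2 and 0.498 in E14 shCtrl. It followed Gbp2 library by library, at a Gbp2 to Gbp2b ratio of 1.32 to 1.78. The sequences of these paralogues are similar, and how the counting divided shared reads is not given in the sources used here. Gbp3 was weaker, at 0.989 FPKM in ES Eed KO and 6.52 in ES WT, 1.59 in EB Eed KO and 0.7502 in EB WT, and 1.09 in E14 shSetd2 and 0.104 in E14 shCtrl. Only ES WT stood well above the rest, by 1.54 on the log2(FPKM + 1) scale over EB Eed KO, and all later steps of its order were under 1.

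Irgm1 had 10.6 FPKM in ES Eed KO and 16.2 in ES WT, 6.53 in EB Eed KO and 3.87 in EB WT, and 5.34 in E14 shSetd2 and 1.41 in E14 shCtrl. Its levels fell off in small steps, and only the last, between EB WT and E14 shCtrl, exceeded 1, at 1.01. Igtp had another order, with 1.21 FPKM in ES Eed KO and 2.42 in ES WT, 2.93 in EB Eed KO and 3.40 in EB WT, and 1.52 in E14 shSetd2 and 0.656 in E14 shCtrl. It was highest in the EB libraries, and no neighbouring levels differed by 1. Irgm1 was thus 8.80 times Igtp in ES Eed KO and 6.71 times in ES WT, but 2.23 times in EB Eed KO and 1.14 times in EB WT.

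Irf1, the transcription factor of the set, had 17.7 FPKM in ES Eed KO and 40.4 in ES WT, 7.14 in EB Eed KO and 7.46 in EB WT, and 20.8 in E14 shSetd2 and 7.58 in E14 shCtrl. The 3 lowest libraries, E14 shCtrl, EB WT and EB Eed KO, were separated by steps of 0.02 and 0.06 on the log2(FPKM + 1) scale. The step above them, up to ES Eed KO, was 1.13.

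**Figure D2:**
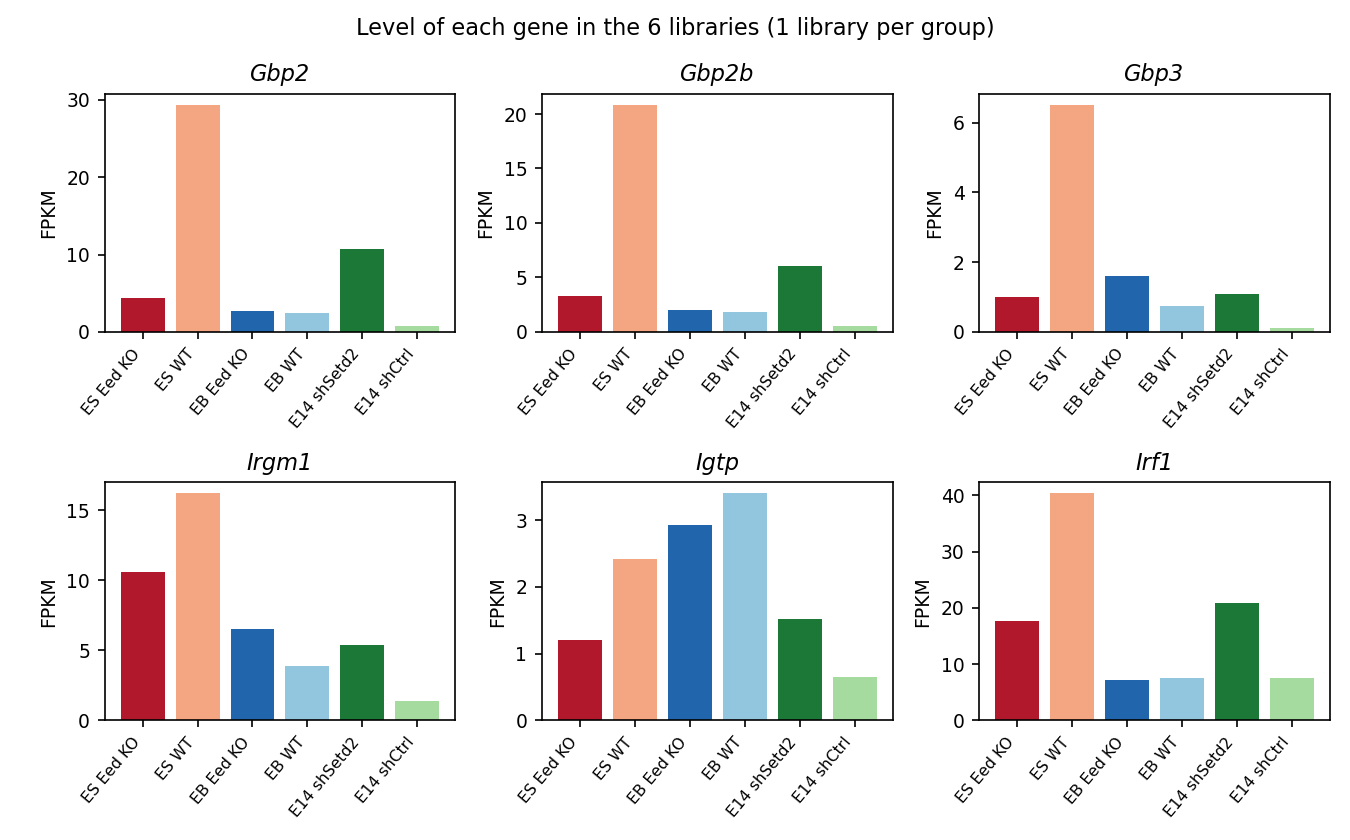
FPKM of the 6 genes in each of the 6 libraries, with 1 bar per library and an axis from 0 in every panel. ES WT is the highest bar for all but Igtp, which is highest in EB WT at 3.40 FPKM.

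In undifferentiated cells, the 3 Gbp genes and Irf1 were lower in ES Eed KO than in ES WT. Gbp2 stood at 0.150 times its ES WT level (difference -2.49), Gbp2b at 0.157 times (-2.36), Gbp3 at 0.152 times (-1.92) and Irf1 at 0.439 times (-1.14). The ratios of the Gbp genes were thus nearly equal. Irgm1 (0.655 times, -0.57) and Igtp (0.499 times, -0.63) stayed within the size rule. In all, 4 of 6 genes were lower and 0 higher, with a median difference of -1.53, against -0.03 over all 14772 expressed genes, of which 3.01% were lower and 2.82% higher. Gbp2 ranked 76 from the lowest of those genes.

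That direction turned with the control. ES WT is also the library in which these genes are highest, and the E14 shCtrl library, an ES culture without an Eed mutation by its label, lay below ES Eed KO for all 6. Against E14 shCtrl, ES Eed KO was higher for Gbp2 (1.59), Gbp2b (1.51), Irgm1 (2.27) and Irf1 (1.13), and positive within the size rule for Igtp (0.41). Gbp3 (0.85) was under 1 FPKM in both libraries. Those are 4 higher and 0 lower of the 5 genes that passed the filter, where 5.47% of 12805 expressed genes were higher and 3.86% lower. Of those 5, Gbp2, Gbp2b and Igtp passed it through ES Eed KO alone. E14 shCtrl against ES WT, a yardstick between lines, had 6 of 6 genes lower and 0 higher (median -2.80), from -4.08 for Gbp2 to -1.04 for Igtp, while 5.65% of 12747 expressed genes were lower and 3.14% higher. Gbp2 (0.791 FPKM), Gbp2b (0.498), Gbp3 (0.104) and Igtp (0.656) were under 1 FPKM in E14 shCtrl. They thus passed the filter there through ES WT alone. The Igtp value missed the size rule under all 3 rescalings and, at -0.48, relative to its chromosome. Line and transduction cannot be told apart in that comparison.

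Other values moved with the same libraries. Chromosome 3 as a whole had a median difference of 0.34 in ES Eed KO against ES WT (429 genes at 5 FPKM or more) and chromosome 11 of -0.56 (803 genes). Chromosome 6, which holds none of the set, was shifted too, at 0.50 (397 genes), and the other 17 chromosomes lay between -0.13 and -0.04. The Gbp genes were thus lower against the shift of their chromosome. Irf1 was at -0.58 relative to chromosome 11, within the size rule, and Irgm1 and Igtp were at about the median of their chromosome. Chromosome 11 was also shifted in E14 shCtrl against ES WT, at -0.57 (801 genes). There chromosome 3 was at -0.05, chromosome 6 at -0.02 and the other 17 between -0.44 and 0.02. Fibroblast and mesenchyme markers (7 genes) summed to 15.0 FPKM in ES Eed KO and 31.0 in ES WT, and none of the 7 was listed at 0. Of the 7, 3 were above their ES WT level and 4 below. The collagen gene Col1a1 was at 4.45 and 19.7, and Thy1 went the other way, at 8.64 and 2.47. Leukocyte markers summed to 8.92 and 16.1, mostly from Laptm5, with Ptprc at 0.0632 and 0.0425 and 2 of 11 listed at 0 in each library. Of the 11, 5 were above their ES WT level, 4 below and 2 equal. Among those above was Itgam, at 1.47 FPKM in ES Eed KO and 1.68e-05 in ES WT. The part of these cells in the result was not tested. In bulk samples, fewer cells of a type and less RNA per cell cannot be told apart.

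In EBs, 0 of the 6 genes were higher and 0 lower in EB Eed KO than in EB WT. Of 14772 expressed genes 7.68% stood higher and 9.82% lower, shares at which a count of 0 in 6 genes says nothing particular about the set. By gene, the differences were 0.07 for Gbp2, 0.11 for Gbp2b, 0.56 for Gbp3, 0.63 for Irgm1, -0.16 for Igtp and -0.06 for Irf1. Their median was 0.09, and that of all genes -0.14. Levels of cell type markers differed between the cultures. Fibroblast and mesenchyme markers summed to 1739 FPKM in EB Eed KO and 755.8 in EB WT, with 7 of 7 above their EB WT level. The 5 neuronal markers summed to 5.18 and 421, with 5 of 5 below. The 6 extraembryonic endoderm markers summed to 81.6 and 23.3, mostly from Gata6 (52.6 and 17.6) and Gata4 (24.8 and 3.30). Of these 6, 4 were above their EB WT level and 2 below. The part of cell makeup in the values of the set was not tested. Gbp3 was 2.12 times and Irgm1 1.69 times its EB WT level by FPKM. Relative to the median of chromosome 11 (-0.74), Irgm1 was at 1.37 and past the size rule. The Eed difference in EBs exceeded that in ES cells for all 6 genes, by 0.47 for Igtp to 2.57 for Gbp2, with a median of 1.83. Over all 14772 genes the median of this quantity was -0.11, with 1349 at 1 or more and 1493 at -1 or less. It was not tested, and it uses the ES WT library.

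Differentiation was compared in each genotype. In EB WT against ES WT, 5 of 6 genes were lower and 0 higher (median -2.20, all genes 0.02), beside 14.2% of 14772 genes lower and 19.3% higher. Gbp2 was at 0.0832 times its ES WT level (-3.14), Gbp2b at 0.0852 (-2.98), Irf1 at 0.185 (-2.29), Gbp3 at 0.115 (-2.10) and Irgm1 at 0.239 (-1.82). Igtp was at 1.41 times (0.37). Fibroblast and mesenchyme markers summed to 755.8 FPKM in EB WT and 31.0 in ES WT, and the part of cell makeup in the result was not tested. This comparison uses the same ES WT library. With E14 shCtrl in its place, a choice made after the values were seen, EB WT was higher for Igtp (1.41) and Irgm1 (1.01), within the size rule for Gbp2 (0.94) and Gbp2b (0.89), and at -0.02 for Irf1, while Gbp3 (0.66) was under 1 FPKM in both libraries. That is 2 higher and 0 lower of 5 genes past the filter, beside 24.2% of 14071 expressed genes higher and 14.1% lower, so the count is near the background. Of those 5, Gbp2, Gbp2b and Igtp passed the filter through EB WT alone.

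In EB Eed KO against ES Eed KO, Irf1 alone was lower (0.403 times, -1.20), and 0 genes were higher, beside 18.5% of 14772 genes lower and 19.7% higher. A count of 1 in 6 lower is near that background. Summing the 3 Irf1 transcripts gave -0.97, short of the size rule. Gbp2 was at -0.57, Gbp2b at -0.51, Irgm1 at -0.63, Gbp3 at 0.38 and Igtp at 0.83, a ratio of 2.43. The median of the set was -0.54, and that of all genes -0.03.

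The Setd2 knockdown has its own control and does not use ES WT. In E14 shSetd2 against E14 shCtrl, Gbp2 was 13.6 times higher (difference 2.71), Gbp2b 12.1 times (2.23), Irgm1 3.79 times (1.40) and Irf1 2.75 times (1.35). Gbp3 was 10.5 times its E14 shCtrl level but weak in both, so its difference of 0.92 missed the size rule, and it passed under 2 of 3 rescalings. Igtp was 2.31 times (0.60). In E14 shCtrl, Gbp2 (0.791 FPKM), Gbp2b (0.498), Gbp3 (0.104) and Igtp (0.656) were under 1 FPKM. Their ratios thus rest on weak control values, and they passed the filter through E14 shSetd2 alone. In all, 4 of 6 genes were higher and 0 lower, where 0.706% of 12317 expressed genes were higher and 1.70% lower. All genes had a median of -0.13, the set one of 1.37. Gbp2 ranked 30 and Irf1 56 from the highest of those 12317 genes. Even so, Gbp2, Gbp2b, Gbp3 and Irgm1 in E14 shSetd2 lay below ES WT, by 1.37 to 1.84. Fibroblast markers summed to 10.98 FPKM in E14 shSetd2 and 11.3 in E14 shCtrl, with 3 of 7 above their E14 shCtrl level, among them Col1a2 at 1.92 and 0.559. Leukocyte markers summed to 11.8 and 27.5, nearly all from Laptm5 at 10.2 and 25.9, and 7 of 11 were above their E14 shCtrl level, among them Itgam at 0.388 and 0.00639. The part of such cells in the result was not tested. Chromosomes 3 and 11 had medians of -0.14 and -0.17.

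**Figure D3:**
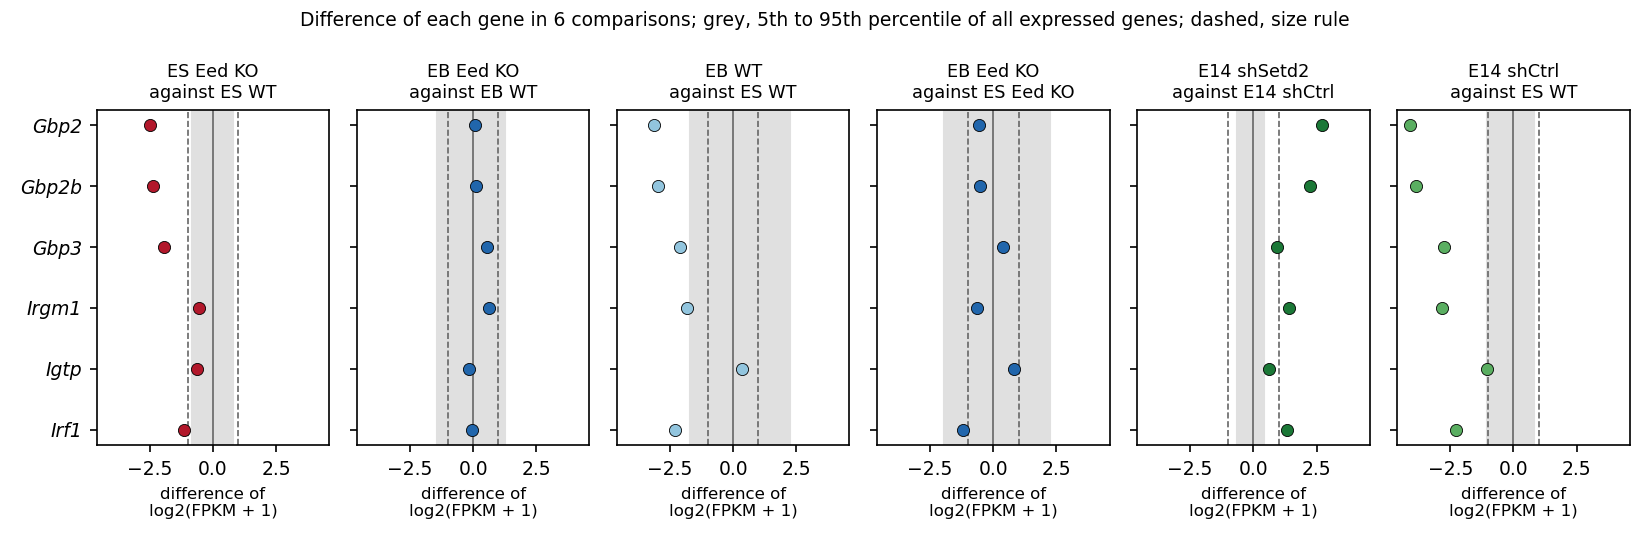
Difference of log2(FPKM + 1) for each gene (points) in 6 comparisons, each tested library minus its control, with dashed lines at the size rule of 1 and a grey band from the 5th to the 95th percentile of all expressed genes. In EB Eed KO against EB WT every point lies in the band, whereas in E14 shSetd2 against E14 shCtrl every point lies above it.

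Genes beside the set were set against it. On chromosome 3 the 3 nearest expressed genes on each side of the Gbp genes were Bmpr1b, Pdlim5 and Gbp7 below and Kyat3, Gtf2b and Pkn2 above. Gbp7, a further guanylate-binding protein 9.97 kb from Gbp3, had 0.437 FPKM in ES Eed KO and 1.76 in ES WT (-0.94), and 0.578 in E14 shSetd2 and 0.0799 in E14 shCtrl (0.55). The 5 neighbours that are no Gbp genes lay at 0.08 to 1.19 in ES Eed KO against ES WT and at -0.58 to 0.12 in E14 shSetd2 against E14 shCtrl. Around the chromosome 11 genes, 18 neighbours had a median of -0.41 in the Eed comparison of ES cells, with 1 lower (Tgtp2) and 0 higher, and 0 of 18 were past the size rule in the knockdown.

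**Figure D4:**
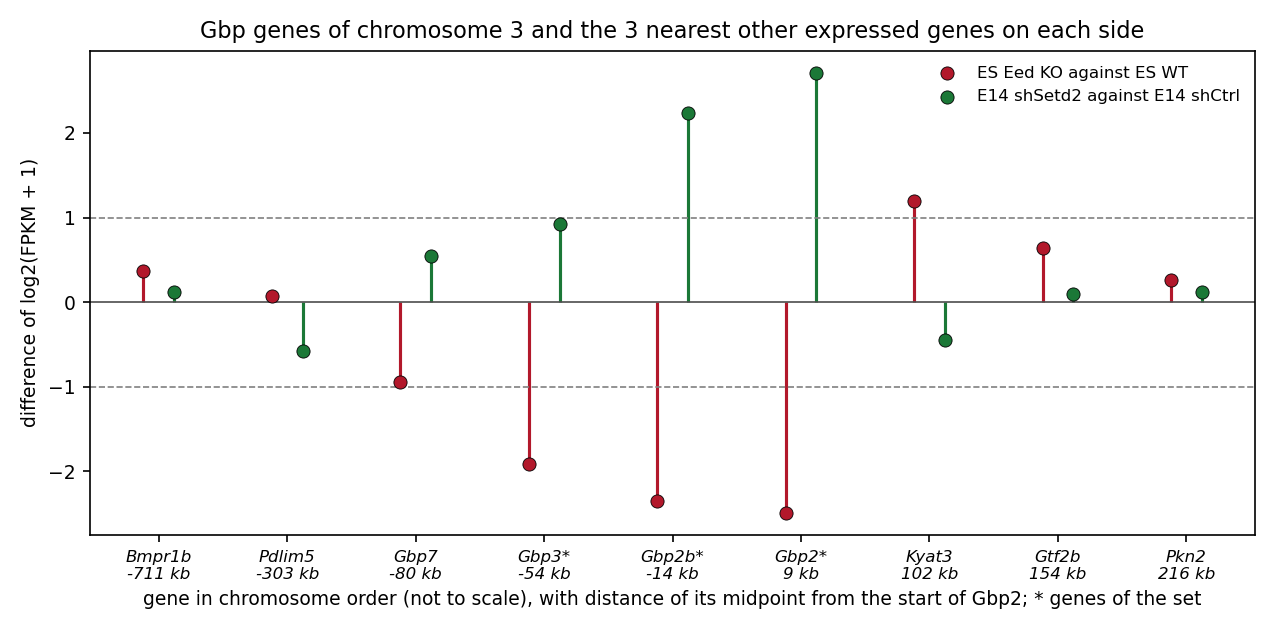
Difference of log2(FPKM + 1) in ES Eed KO against ES WT (red) and in E14 shSetd2 against E14 shCtrl (green) for the Gbp genes of the set (asterisks) and their nearest expressed neighbours, in chromosome order with the distance from the start of Gbp2 in kb. The lines of the Gbp genes, from Gbp7 to Gbp2, point down in red and up in green, and those of the flanking genes are 1.19 or less in size.

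Of the other guanylate-binding proteins, 7 of 8 listed were in the table and 4 were expressed in the E36 libraries. In ES Eed KO against ES WT 1 of 4 was lower and 0 higher, Gbp4 at 0.305 FPKM and 2.35 (0.782 and 2.52 with its transcripts summed, which is within the size rule). Of all expressed genes 3.01% were lower and 2.82% higher there. EB Eed KO had 1 higher than EB WT, Gbp7 with 5.51 FPKM and 1.95, beside 7.68% of all expressed genes. In EB Eed KO against ES Eed KO 3 were higher, Gbp7 (2.18), Gbp9 (1.55) and Gbp6 (1.08), beside 19.7% of all expressed genes. In E14 cells 0 of the 7 reached 1 FPKM. Of 18 further immunity-related and related GTPases 4 were expressed in E36 cells. Irgm2, the neighbour of Igtp and the third regulatory gene, had 1.30 FPKM in ES Eed KO and 1.81 in ES WT, 2.41 in EB Eed KO and 2.62 in EB WT, and 1.24 in E14 shSetd2 and 0.810 in E14 shCtrl. Tgtp2, lower in ES Eed KO (-1.20), has a near-identical copy, Tgtp1, and the division of reads between them is uncertain.

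Upstream of the set, 0 of 12 interferon ligand genes reached 1 FPKM in any library. Ifng was listed at 0 in 5 libraries and at 0.115 FPKM in E14 shSetd2. Receptor and JAK-STAT genes, with their inhibitors, had 0 higher and 0 lower of 17 in ES Eed KO against ES WT (median -0.06), and 0 and 0 of 16 in E14 shSetd2 against E14 shCtrl (-0.06). All expressed genes had 2.82% higher and 3.01% lower in the first comparison, and 0.706% and 1.70% in the second. Counts of 0 are thus near the background. Of the 17, 1 was higher in EB Eed KO than in EB WT, near the share of 7.68% over all expressed genes. That gene was Usp18, at 7.18 and 1.02 FPKM. It encodes an inhibitor of interferon receptor signalling. In EB WT against ES WT 2 of 17 were higher, the receptor chain Ifngr2 (2.05) and the kinase Jak2 (1.32), and 3 lower, the phosphatase Ptpn6 (-2.31), the inhibitor Socs1 (-1.12) and the kinase Tyk2 (-1.09). Of all expressed genes 19.3% were higher and 14.2% lower there, so these counts are near the background.

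Other interferon regulatory factors did not follow Irf1. Of 8 expressed, 0 were higher or lower in ES Eed KO against ES WT, beside 2.82% and 3.01% of all expressed genes. In EB Eed KO against EB WT, where Irf1 was at -0.06, 4 were higher, beside 7.68% of all expressed genes. The 4 included Irf8, a myeloid factor (6.90 and 0.884 FPKM), Irf5 (10.9 and 2.73) and Irf9, the DNA-binding part of the complex formed after type I interferon (4.01 and 0.867). In the knockdown 0 of 4 were past the size rule.

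Further interferon-gamma targets had 1 higher and 4 lower of 16 in ES Eed KO against ES WT (median -0.22), beside 2.82% and 3.01% of all expressed genes. The higher one was the chemokine gene Cxcl11 (1.73 and 0.000129 FPKM). In every library but ES Eed KO it was listed at 0.000206 FPKM or less. Its call thus rests on 1 library, and how the counting divided any shared reads is not given. The lower ones were the immunoproteasome genes Psmb8 (1.38 and 8.70 FPKM) and Psmb10 (26.7 and 55.6) and the peptide transporter genes Tap1 (1.29 and 3.65) and Tap2 (1.35 and 4.18). These 4 genes were lower still in E14 shCtrl, at 0.624, 10.1, 0.608 and 0.402 FPKM. In E14 shCtrl against ES WT 8 of 15 targets were lower and 0 higher (median -1.42), beside 5.65% and 3.14% of all expressed genes. In the knockdown 2 of 10 were higher and 0 lower (median 0.51), beside 0.706% and 1.70% of all expressed genes. The 2 were Psmb8 with 5.67 FPKM in E14 shSetd2 and 0.624 in E14 shCtrl, and Tap2 with 1.95 and 0.402. The EB Eed KO library had 7 of 16 higher than EB WT and 0 lower (median 0.79), beside 7.68% and 9.82% of all expressed genes. The 7 included Cd74, the class II invariant chain (11.5 and 0.981), and the class II gene H2-Ab1 (35.2 and 9.07). Of 10 autophagy conjugation genes, whose products direct interferon-inducible GTPases to vacuoles, 2 were higher in ES Eed KO, beside 2.82% of all expressed genes. These were Gabarapl2 (328 and 80.9 FPKM) and Gabarapl1 (30.8 and 14.1). In the knockdown, 0 of 10 were past the size rule. Of the housekeeping genes, 0 of 12 in ES Eed KO and 0 of 11 in the knockdown passed the size rule. Some passed it elsewhere. In EB Eed KO against EB WT 1 of 12 was higher, B2m (241.5 and 69.9 FPKM), and 1 lower. EB WT against ES WT had 2 higher and 2 lower, and EB Eed KO against ES Eed KO 2 higher and 4 lower. In E14 shCtrl against ES WT 1 was lower and 0 higher.

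Across the 6 libraries the profiles of Gbp2 and Gbp2b had a Pearson correlation of 0.995 on the log2(FPKM + 1) scale, and those of Gbp2 and Irf1 of 0.94. Igtp was least like the rest, at -0.05 with Irf1 and 0.26 with Gbp2. The libraries share cell lines and 2 genotypes, so these are descriptions over 6 points. Among 7687 genes with at least 5 FPKM and a range of at least 1, the genes outside the set most like its mean profile were Pcdh1 (0.998), Shroom2 (0.92), Atp10a (0.92), Parp9 (0.90) and Krt8 (0.89). Pcdh1, a protocadherin, had 4.19 FPKM in ES Eed KO and 9.78 in ES WT, 3.63 in EB Eed KO and 3.15 in EB WT, and 4.59 in E14 shSetd2 and 1.40 in E14 shCtrl. Parp9, an ADP-ribosyltransferase family gene, had 4.06 and 9.75, 3.39 and 2.92, and 5.71 and 2.98 FPKM in the same libraries.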

How the data were processed

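Per the labels' protocols, Trizol RNA went into the TruSeq RNA v2 kit, which does not mark strand. The deposited values are FPKM per RefSeq transcript, which the authors obtained with TopHat and Cuffdiff on mm9, per the submitters' processing notes. For tool versions, annotation release and scaling, nothing is stated in the labels. The table lists no counts, so no counting interval is given. Of 29851 transcripts, 29300 were matched to a symbol through RefSeq (GRCm38.p6, names only), giving 23421 genes. The transcript with the highest mean stands for a gene (pandas 2.3.3). Coordinates are those of the table, written from 1.

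A gene was expressed if any of the 4 E36 libraries (with E14 involved, either of the 2 compared) reached 1 FPKM. Differences used a pseudocount of 1, and the size rule of 1 replaced any test. Neighbours are the 3 nearest expressed genes on each side. The alike genes are the 5 with the highest correlation to the mean scaled profile. From each list, genes past the size rule were named, at most 4 per comparison, and the choice among these was made with the values known, as were Irgm2, Ifng and Hprt. Some values are not reported here. Genes and lists were chosen with earlier results of these data known. The alternatives were 2 other pseudocounts, summed transcripts, 3 rescalings, no filter, values relative to the chromosome, a looser size rule (a ratio of 1.5) and E14 shCtrl as the control.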

Additional observations from a re-analysis of the deposited data

Results flagged for a closer look

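For 3 genes the Eed difference had opposite signs in ES cells and EBs and was past the size rule in ES cells. The EB value minus the ES value was 2.57 for Gbp2 (0.07 in EBs, -2.49 in ES cells), 2.46 for Gbp2b (0.11 and -2.36) and 2.48 for Gbp3 (0.56 and -1.92). These differences were not tested, since each rests on 4 single libraries. The EB values are small, so their sign is uncertain, and the ES values use the ES WT library, in which these genes were highest.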

How the results depend on the processing

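Of 300 recomputed differences of single genes, 270 kept their call and sign of call. Some of these could not change. The 36 values without a filter were fixed because all 6 genes passed it, and summing transcripts could alter only Irf1. The control library made the largest changes. With E14 shCtrl in place of ES WT, the ES Eed KO comparison had 4 genes higher and 0 lower (5.47% and 3.86% of all expressed genes), with Gbp2 at 1.59, Gbp2b at 1.51, Gbp3 at 0.85 and Irf1 at 1.13. With E14 shCtrl as the undifferentiated library, chosen after seeing the data, EB WT had 2 higher and 0 lower (24.2% and 14.1% of all expressed genes), with Gbp2 at 0.94, Gbp2b at 0.89, Gbp3 at 0.66 and Irgm1 at 1.01. In EB Eed KO against EB WT the count of higher genes was 1 relative to the chromosome and 1 at the looser size rule, a ratio of 1.5. In EB Eed KO against ES Eed KO, it was 1 with pseudocounts of 0.1 and 0.5, equal totals, values relative to the chromosome and the looser rule. The count of lower genes there was 0 with summed transcripts, equal totals or values relative to the chromosome, and 2 at the looser rule. Counts of the remaining comparisons stayed within 1.5 times under every alternative run. The cause of these changes was not tested. Equal totals moved the median of all genes in EB WT against ES WT to 0.26. Levels under about 1 FPKM, such as those of Gbp3, rest on few fragments and on the pseudocount. No paired analysis was possible because each group has 1 library, and for the same reason no library could be left out.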
